A study of Mus musculus with 5 samples.

Results

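Genes of the thymic medulla were examined on arrays of cells sorted as thymic endothelium: the regulators Aire and Fezf2 together with 36 genes whose products belong to other organs, such as caseins of milk, proteins of saliva, trefoil peptides of the gut and apolipoproteins of the liver. The 38 genes were chosen by symbol, with the day 4 and day 0 values of these arrays already known, so every difference between the groups given here for them is a description and supports nothing by itself. Of the 38 genes, 35 had at least 1 probe set under their symbol, and these gave 54 probe sets of 22626 on the array. Ins1, Spt1 and Muc10 had none under those symbols.

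Medullary epithelial cells show developing T cells the proteins of the rest of the body, so that cells which react to them are removed or turned into regulatory T cells. AIRE, the autoimmune regulator, releases transcription of many tissue-restricted genes in these cells, and the zinc finger protein FEZF2 drives another set of them. Each such gene is switched on in a small share of medullary cells at a time, and some tissue-restricted genes, C-reactive protein and the glutamate decarboxylase Gad1 among them, are commonly used as examples that do not need AIRE.

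The irradiated cells came from female C57BL/6J mice 6 to 8 weeks old that had received 550 cGy of sublethal whole-body irradiation, without blood cell rescue, 4 days earlier (day 4, 2 arrays). They were set against cells of untreated females of the same strain and age (day 0, 3 arrays). In both groups blood cells were depleted through CD45, cells without CD45 and EpCAM and with VE-cadherin were sorted, and cells of several mice were pooled for each array. The cell type label itself differs between the groups, CD45-negative thymic stromal cells at day 4 and thymic endothelial cells at day 0, while the sort is described in the same way for both. The gate leaves out EpCAM-positive epithelial cells, in which the genes followed here are normally expressed.

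Endothelial genes were high on every array, and the epithelial gene that the gate selects against was above log2 4 on every array too. Over 19 probe sets of 12 endothelial genes the mean level was 9.44 and 9.71 on the day 4 arrays, against 9.55 to 9.75 on the day 0 arrays, on the log2 scale of the deposited values. Cdh5, which encodes the VE-cadherin of the gate, read 11.38 and 11.40 at day 4 with its higher probe set, and 11.51 to 11.64 at day 0. Epcam, the epithelial adhesion molecule of the gate, read 7.17 and 5.67 on the day 4 arrays, against 7.27, 6.59 and 6.83 on the day 0 arrays. Over all 22626 probe sets, 65.1% had a group mean above log2 4 at day 4 and 65.1% at day 0, and array medians lay between 5.26 and 5.30. A log2 value of 4 is used below as the level above which a message is counted as readily seen; the table gave no detection calls.

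The promoters of 4 genes with a called probe set are shown because the calls of the comparison rest on these genes, with Aire beside them as the regulator. Each sequence is the RefSeq stretch from 250 bases before to 50 after the gene's start in build GRCm38.p6, written 5′ to 3′ on the gene's own strand. Capitals mark a TATAAA box or a TTCNNNGAA site, the form bound by STAT factors, searched on both strands. Csn2 lies at chr5:87699376-87699675 on the minus strand, Wfdc18 at chr11:83708754-83709053 on the plus strand and 2210407C18Rik at chr11:58613443-58613742 on the minus strand. Dcpp1 lies at chr17:23880626-23880925 on the plus strand, and Aire at chr10:78043561-78043860 on the minus strand.
Csn2: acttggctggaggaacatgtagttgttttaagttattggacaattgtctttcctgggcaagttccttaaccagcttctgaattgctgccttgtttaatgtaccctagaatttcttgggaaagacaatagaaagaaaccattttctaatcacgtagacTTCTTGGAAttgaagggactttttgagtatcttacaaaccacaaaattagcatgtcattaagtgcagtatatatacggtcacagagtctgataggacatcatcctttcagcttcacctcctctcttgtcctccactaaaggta
Wfdc18: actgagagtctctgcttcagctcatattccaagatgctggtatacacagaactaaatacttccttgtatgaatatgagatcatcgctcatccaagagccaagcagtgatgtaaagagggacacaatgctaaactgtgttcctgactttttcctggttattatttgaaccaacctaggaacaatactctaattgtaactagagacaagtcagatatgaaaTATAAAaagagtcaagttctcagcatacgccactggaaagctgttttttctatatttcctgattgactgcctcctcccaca
2210407C18Rik: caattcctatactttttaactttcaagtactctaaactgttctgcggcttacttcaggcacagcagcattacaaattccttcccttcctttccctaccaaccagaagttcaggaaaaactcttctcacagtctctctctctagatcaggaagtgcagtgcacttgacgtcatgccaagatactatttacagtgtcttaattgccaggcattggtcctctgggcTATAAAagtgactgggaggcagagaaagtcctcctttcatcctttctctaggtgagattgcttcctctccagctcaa
Dcpp1: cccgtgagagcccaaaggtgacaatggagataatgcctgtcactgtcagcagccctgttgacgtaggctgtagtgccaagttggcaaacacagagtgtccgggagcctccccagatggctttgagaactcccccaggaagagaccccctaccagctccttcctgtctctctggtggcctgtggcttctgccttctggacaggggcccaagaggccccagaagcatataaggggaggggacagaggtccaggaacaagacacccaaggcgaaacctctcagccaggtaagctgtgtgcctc
Aire: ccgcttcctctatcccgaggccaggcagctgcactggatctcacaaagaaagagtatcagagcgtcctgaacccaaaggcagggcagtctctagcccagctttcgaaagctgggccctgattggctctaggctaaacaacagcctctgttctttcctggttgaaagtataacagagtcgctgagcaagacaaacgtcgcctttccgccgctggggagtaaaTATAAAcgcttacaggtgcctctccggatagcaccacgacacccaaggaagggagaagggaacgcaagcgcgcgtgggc

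The Csn2 window holds a TTCNNNGAA match, the Wfdc18, 2210407C18Rik and Aire windows hold a TATAAA match, and the Dcpp1 window holds neither. A promoter of this kind was in the table for 27 of the 35 measured genes. TATAAA was found in 9 of the 27 (33.3%), against 13.6% of all 32851 promoters of the same length. TTCNNNGAA was found in 4 (14.8%), namely Csn1s1, Csn2, Csn1s2a and Gsta1, against 8.30% of all promoters. The windows were poor in CG dinucleotides, with a median of 3 in the 27 and 7 in all promoters, and 20 of the 27 (74.1%) held at most 4, against 38.0% of all. Both regulators held more, with 16 CG dinucleotides for Aire and 20 for Fezf2, while Csn2, Wfdc18 and 2210407C18Rik held 2 each and Dcpp1 held 4. A match describes the letters only.

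Fewer of the genes were readily seen after irradiation. With each gene read by its probe set of highest mean, 10 and 11 of 35 genes lay above log2 4 on the day 4 arrays (28.6% and 31.4%), against 21, 19 and 22 on the day 0 arrays (60.0%, 54.3% and 62.9%). By group means the count was 12 at day 4 (34.3%) and 21 at day 0 (60.0%). The shares did not overlap between the groups, while the share of all probe sets above that level ran from 64.9% to 65.4% on the day 4 arrays and from 64.8% to 65.2% on the day 0 arrays. In bulk samples, fewer cells of a type and less RNA per cell cannot be told apart.

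By group means, 11 genes were above log2 4 at day 0 only: Fezf2, Csn2, Dcpp1, Dcpp2, Dcpp3, Tff2, Tff3, Spink1, Pyy, Apoa1 and Gsta1. Aire, Lalba, Wfdc18, Muc1, Reg3g, Ins2, Ttr, Mbp, Lcn2 and 2210407C18Rik were above it in both groups. Sst and Ltf were above it at day 4 only, and the other 12 genes in neither group. The level cannot separate values that lie next to it. Sst averaged 4.04 at day 4 and 3.97 at day 0, and at day 0 Tff2 averaged 4.05 and Pyy 4.06. The 3 Dcpp genes were counted through 1 shared probe set.

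**Figure D1:**
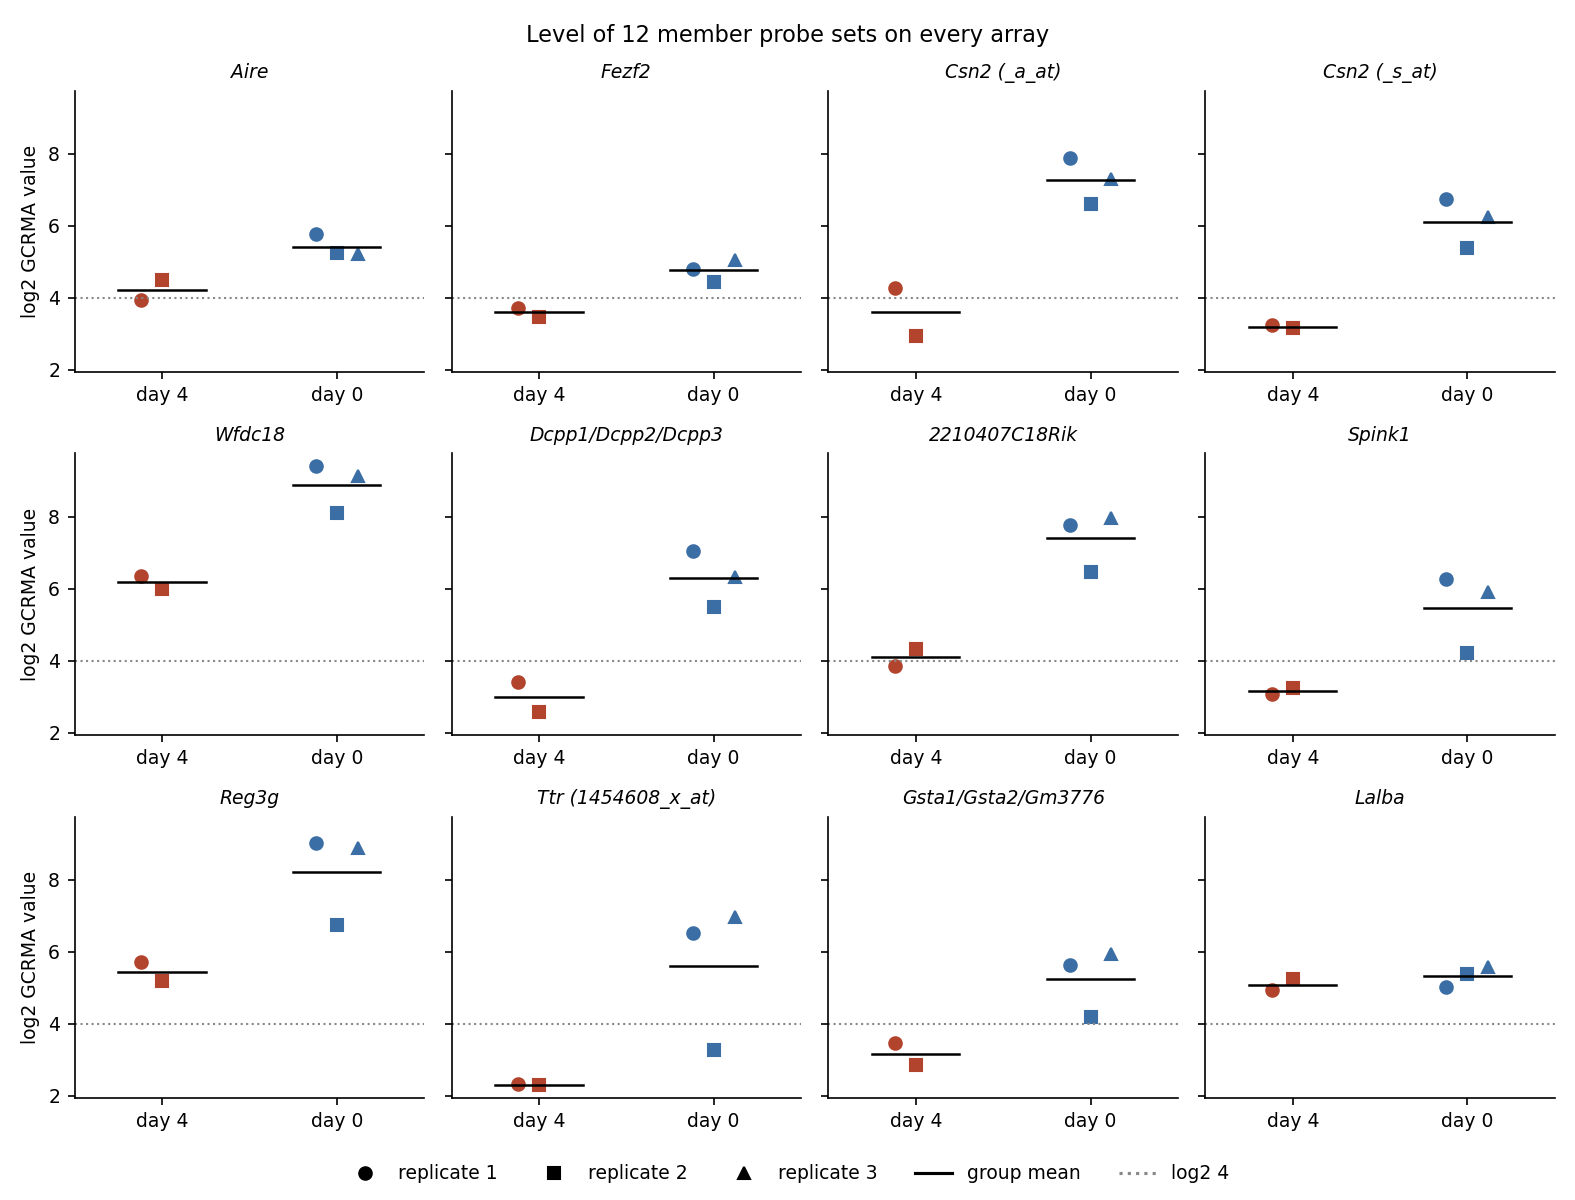
Log2 value of 12 probe sets on each array, with day 4 left of day 0, 1 point per array, a black line at the group mean and a dotted line at log2 4. In every panel but Lalba both day 4 points lie below all day 0 points, and day 0 replicate 2 is the lowest day 0 point in all panels but Aire and Lalba.

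Groups were compared in limma over all 22626 probe sets, with Benjamini-Hochberg adjustment over all of them, and a probe set was called at an adjusted p under 0.05. Each array is a pool of cells, so these p-values measure the spread between pools, which may be partly technical, and the number of arrays limits the precision. Of the 54 probe sets, 5 were called lower at day 4 and 0 higher. Over the whole array, 0.455% of probe sets were called lower and 0.491% higher. At an unadjusted p under 0.05, limma gave 22 of the 54 lower and 5 higher, against 7.5% and 8.18% of the array. Both day 4 arrays lay below all day 0 arrays in 26 of the 54 probe sets, against 17.6% of the array. They lay above all day 0 arrays in 4, against 16.7% of the array, and overlapped in 24. The median log2 change, day 4 minus day 0, was -0.45 over the 54 and 0.002 over the array. None of these counts is independent of the choice of genes.

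Both regulators lay below all day 0 arrays on both day 4 arrays, and neither was called. Aire read 3.95 and 4.50 on the day 4 arrays, against 5.76, 5.24 and 5.20 on the day 0 arrays. The groups did not overlap, and the gap between the nearest arrays was 0.70. Its log2 change was -1.18 ± 0.23 (SE), a 2.26-fold lower value, with a limma adjusted p of 0.0835.

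Fezf2 read 3.72 and 3.47 on the day 4 arrays, against 4.80, 4.45 and 5.05 on the day 0 arrays. All day 0 arrays lay above log2 4 and both day 4 arrays below it. Its log2 change was almost the same size as that of Aire, at -1.17 ± 0.19 (SE), with a limma adjusted p of 0.0525. Fezf2 passed the threshold in 5 of the settings. Among them were median centring of the arrays (limma adjusted p 0.0474) and leaving out day 0 replicate 2, its lowest untreated array (0.0303). It did not pass without day 0 replicate 1 (adjusted p 0.131) or replicate 3 (adjusted p 0.140). Aire passed in none of the settings in which it was fitted.

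The largest change among the 54 probe sets was that of Csn2, a milk protein gene. Of 12 milk protein probe sets, 3 were called lower, against 0.455% of the array, 2 of them for Csn2 and 1 for Wfdc18. Csn2, which encodes beta-casein, read 4.26 and 2.93 on the day 4 arrays with probe set 1420369_a_at, against 7.89, 6.59 and 7.29 on the day 0 arrays. Its second probe set, 1420370_s_at, read 3.25 and 3.15 at day 4, against 6.73, 5.38 and 6.23 at day 0. Every day 4 array lay more than 2 log2 units below every day 0 array with either probe set. The log2 changes were -3.66 ± 0.47 (SE, limma adjusted p 0.0305) and -2.91 ± 0.35 (SE, limma adjusted p 0.0239), or 12.6-fold and 7.54-fold lower.

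Wfdc18 encodes a small secreted protein with the fold of whey acidic protein. Its probe set read 6.35 and 6.00 on the day 4 arrays, against 9.40, 8.09 and 9.12 on the day 0 arrays. It stayed well above log2 4 on both day 4 arrays even though the groups were 1.74 apart at the nearest arrays. That is a log2 change of -2.70 ± 0.37 (SE), or 6.48-fold lower, with a limma adjusted p of 0.0342.

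The other caseins were under log2 4 in both groups. In the RefSeq gene order Csn1s1 and Csn1s2a are the protein-coding genes on either side of Csn2. Csn1s1, alpha-casein, read 2.83 and 2.96 at day 4, against 3.53, 3.21 and 3.50 at day 0. The groups did not overlap, but all of these values are under log2 4. The 4 probe sets of Csn1s2a had log2 changes of -0.55 to 0.06 and the 2 of Csn3, kappa-casein, of -0.18 and -0.11, all with values under log2 4 on every array. Wap, whey acidic protein, had a log2 change of -0.10. Lalba, the alpha-lactalbumin that helps to make lactose, was above log2 4 on all 5 arrays, at 4.92 and 5.25 on the day 4 arrays, against 5.01, 5.37 and 5.58 on the day 0 arrays. Those groups overlapped, and the log2 change was -0.23 ± 0.19 (SE, limma adjusted p 0.597).

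The demilune cell and parotid proteins Dcpp1, Dcpp2 and Dcpp3 are secreted in saliva. Probe set 1459725_s_at, annotated to all 3 genes, read 3.40 and 2.56 on the day 4 arrays, against 7.05, 5.48 and 6.32 on the day 0 arrays. The lowest day 0 array, replicate 2, lay 2.08 above the higher day 4 array. In limma the log2 change came to -3.30 ± 0.46 (SE), or 9.86-fold lower, with an adjusted p of 0.0345.

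The probe sets annotated to a single Dcpp gene differed from it. Probe set 1447456_x_at for Dcpp3 read 4.29 and 4.60 on the day 4 arrays, against 5.03, 5.04 and 4.995 on the day 0 arrays, with a log2 change of -0.58 (limma adjusted p 0.101). Probe set 1417459_at for Dcpp1 stayed between 2.60 and 2.95 on all 5 arrays. The 3 promoters are near copies, with 93.8% to 96.4% identical positions in pairwise alignment, and the signal of the 3 genes cannot be told apart with the shared probe set.

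2210407C18Rik, a gene known here by its RIKEN clone name, was the fifth call. It read 3.86 and 4.32 on the day 4 arrays, against 7.76, 6.47 and 7.97 on the day 0 arrays. The nearest arrays of the groups were 2.15 apart. Limma gave a log2 change of -3.31 ± 0.43 (SE), or 9.89-fold lower, with an adjusted p of 0.0310.

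All 5 calls rest on few arrays. Without day 4 replicate 1, day 4 replicate 2 or day 0 replicate 3, limma called 0 of the 54 probe sets, although 16, 16 and 23 were lower at an unadjusted p under 0.05, against 6.87%, 9.22% and 6.34% of the array. Leaving out day 0 replicate 1 kept 3 calls, both Csn2 probe sets and the shared Dcpp probe set, with Wfdc18 at an adjusted p of 0.0511 and 2210407C18Rik at 0.0654. With that array left out, 58 of the 22626 probe sets of the array were called lower. Leaving out day 0 replicate 2 kept all 5 and added 7, for 12 in all, while 124 of the 22626 were called lower. At an unadjusted p under 0.05, limma then gave 30 of the 54 lower, against 5.47% of the array. Taking out the untreated array on which most of the 54 were lowest narrows the spread by itself. With array weights limma also called 0, with 19 lower at an unadjusted p under 0.05, against 6.12% of the array.

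**Figure D2:**
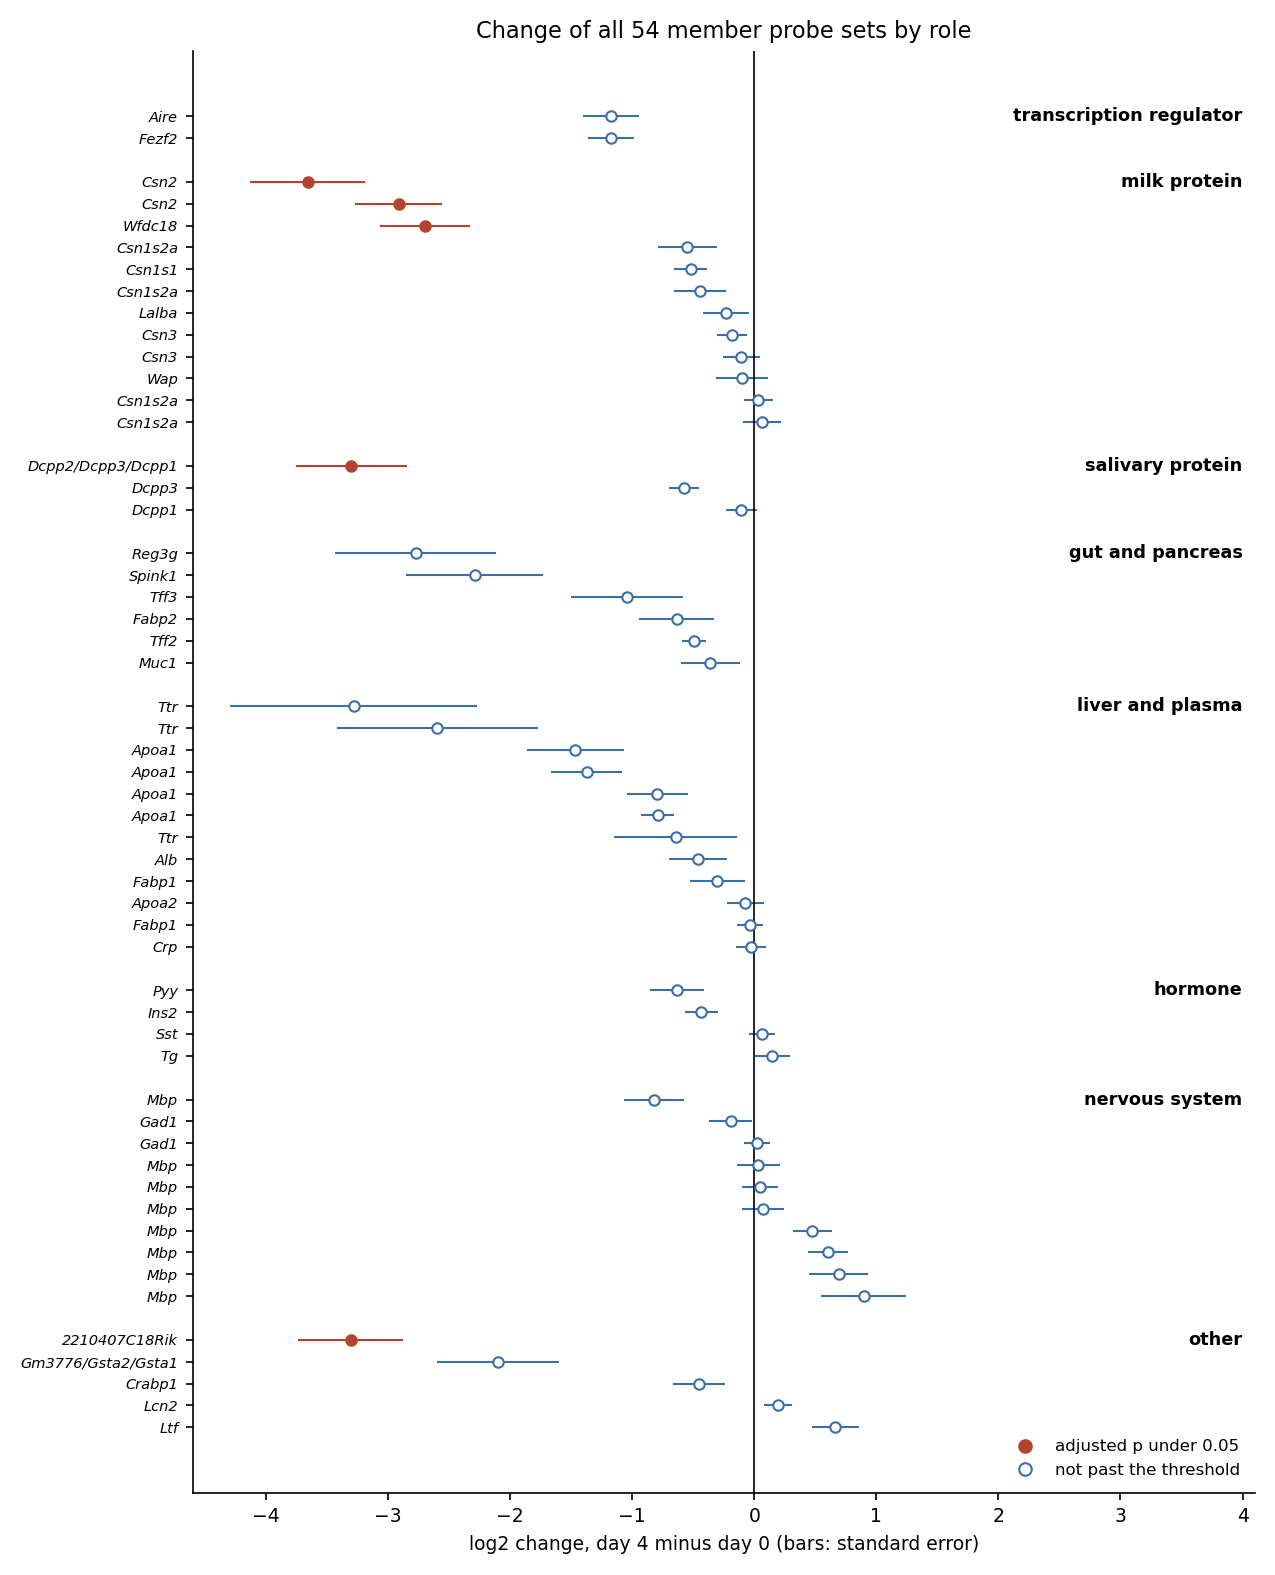
Log2 change, day 4 minus day 0, of all 54 probe sets with bars of 1 standard error, grouped by the organ or role of the gene, with filled points for an adjusted p under 0.05. The 5 called probe sets lie between -3.66 and -2.70, and the only group with a median above 0 is that of the nervous system, through Mbp.

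Products of gut and pancreas gave 6 probe sets. Both day 4 arrays lay below all day 0 arrays in 4 of them, against 17.6% of the array. Limma called 0 of the 6, and 3 were lower at an unadjusted p under 0.05, against 7.5% of the array. Reg3g, Tff3 and Ttr are described in full because of their spread, and were singled out after their values were seen. Reg3g, an antibacterial lectin of the intestine, read 5.71 and 5.17 on the day 4 arrays, against 9.02, 6.74 and 8.87 on the day 0 arrays. Its log2 change of -2.77 ± 0.66 (SE) was of the size of the called genes, with a limma adjusted p of 0.128. Without day 0 replicate 2, the array on which it was lowest among the untreated, it was called. Taking out that array narrows the spread by itself, and Reg3g was not called without day 0 replicate 1 or 3.

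Spink1, the trypsin inhibitor of the pancreas, read 3.08 and 3.25 on the day 4 arrays, against 6.27, 4.21 and 5.89 on the day 0 arrays. The groups did not overlap, and day 0 replicate 2 again stood closest to day 4. Spink1 had a log2 change of -2.29 ± 0.56 (SE, limma adjusted p 0.134). Without day 0 replicate 2 the adjusted p was 0.00278, but taking out the untreated array nearest to day 4 narrows the spread by itself. Without day 0 replicate 1 or 3 it was 0.247 or 0.287.

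Among the trefoil peptides, which protect the mucus layer, Tff2 read 3.56 and 3.56 on the day 4 arrays, against 4.07, 4.05 and 4.03 on the day 0 arrays. The difference was small and even, with a log2 change of -0.49 ± 0.09 (SE, limma adjusted p 0.0815). Tff3 read 2.87 and 3.30 at day 4, against 4.78, 3.15 and 4.47 at day 0. Day 0 replicate 2 fell between the day 4 arrays, so the groups overlapped (log2 change -1.04, limma adjusted p 0.336). The log2 change was -0.64 for Fabp2, a fatty acid carrier of the gut under log2 4 on all arrays, and -0.36 for the mucin Muc1.

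Among hormones, Ins2, an insulin gene widely used to follow AIRE-dependent expression, read 4.43 and 4.82 on the day 4 arrays, against 5.03, 5.06 and 5.09 on the day 0 arrays. The day 0 arrays lay close together (SD 0.03) and both day 4 arrays below them, by 0.21 at the nearest. The log2 change was -0.43 ± 0.14 (SE, limma adjusted p 0.207). The gut hormone gene Pyy had a log2 change of -0.63 (limma adjusted p 0.249) without overlap of the groups. Somatostatin (Sst) at 0.06 and thyroglobulin (Tg), the thyroid hormone precursor, at 0.15 overlapped between the groups.

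Liver and plasma genes gave 12 probe sets. Limma called 0 of them, and 6 were lower at an unadjusted p under 0.05, where 7.5% of the array was lower. Both day 4 arrays lay below all day 0 arrays in 7, against 17.6% of the array. Apoa1, the main protein of high-density lipoprotein, had 4 probe sets that all had this order. The one with the highest mean, 1438840_x_at, read 3.94 and 3.94 on the day 4 arrays, against 6.25, 4.76 and 5.20 on the day 0 arrays. Its log2 change was -1.46 ± 0.39 (SE, limma adjusted p 0.162), and those of the other 3 ran from -1.37 to -0.79, with adjusted p values of 0.0576 to 0.213.

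Transthyretin (Ttr), which carries thyroxine and the retinol-binding protein, had the widest spread within a group. Probe set 1454608_x_at read 2.32 and 2.30 on the day 4 arrays, against 6.53, 3.27 and 6.97 on the day 0 arrays. Day 0 replicate 2 lay nearer to the day 4 arrays than to the other untreated ones. For this probe set the log2 change was -3.28 ± 1.01 (SE, limma adjusted p 0.203). Probe set 1455913_x_at had the same order (log2 change -2.60), whereas 1451580_a_at read 4.23 and 4.57 at day 4, against 4.81, 4.20 and 6.12 at day 0, and overlapped. The albumin gene Alb had a log2 change of -0.46, the C-reactive protein gene Crp of -0.03, Apoa2 of -0.07 and the 2 probe sets of the liver fatty acid carrier Fabp1 of -0.30 and -0.03, all with values under log2 4 on every array.

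Gsta1 was read only through probe set 1421041_s_at, which is annotated to Gsta1, Gsta2 and Gm3776, glutathione S-transferase genes of detoxification. It read 3.46 and 2.85 on the day 4 arrays, against 5.63, 4.19 and 5.93 on the day 0 arrays. All day 0 arrays were above log2 4 and both day 4 arrays below it. Its log2 change was -2.10 ± 0.50 (SE, limma adjusted p 0.128). The adjusted p was 0.0112 without day 0 replicate 2, its lowest untreated array, and 0.277 or 0.262 without day 0 replicate 1 or 3.

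Genes of the nervous system had a median log2 change of 0.06 over 10 probe sets, the only group of the 54 with a median above 0. Myelin basic protein (Mbp) had 8 probe sets with log2 changes of -0.82 to 0.90. Of these, 3 had both day 4 arrays above all day 0 arrays, against 16.7% of the array. In 1 both lay below, against 17.6% of the array. The same locus is known to make golli transcripts in immune cells, which were not told apart from myelin transcripts here. The one with the highest mean, 1456228_x_at, read 5.62 and 5.07 on the day 4 arrays, against 4.92, 4.25 and 4.78 on the day 0 arrays. The groups did not overlap, by 0.15 at the nearest arrays, with a log2 change of 0.69 ± 0.24 (SE, limma adjusted p 0.245). Probe set 1433532_a_at had the highest log2 change, 0.90, but its groups overlapped, at 5.84 and 5.03 on the day 4 arrays, against 5.04, 3.97 and 4.62 on the day 0 arrays. Gad1 stayed under log2 4 on all arrays with log2 changes of -0.19 and 0.02, and so did Crabp1, a retinoic acid carrier, at -0.45.

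Ltf and Lcn2, which are made in milk and other secretions and also by neutrophils, averaged higher at day 4 without being called. Lactoferrin (Ltf) read 4.59 and 3.97 on the day 4 arrays, against 3.52, 3.78 and 3.54 on the day 0 arrays (log2 change 0.66, limma adjusted p 0.185). Lipocalin 2 (Lcn2) read 5.71 and 5.57 at day 4, against 5.36, 5.57 and 5.41 at day 0 (log2 change 0.19, limma adjusted p 0.469). Of 12 neutrophil probe sets 2 were called lower, S100a8 and S100a9 with log2 changes of -2.93 and -1.88, and 0 higher. The median log2 change of the 12 was -0.10, 4 were above 0 and the groups overlapped in 7.

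Of the 3 genes with no probe set under their symbol, 2 could be found through RefSeq synonyms. Spt1, a salivary protein often used to follow AIRE, is a synonym of Mucl2, which read 2.24 and 2.18 on the day 4 arrays, against 4.72, 2.87 and 3.31 on the day 0 arrays. The groups did not overlap, with a log2 change of -1.43 (limma adjusted p 0.238). Muc10 is a synonym of Prol1, whose 2 probe sets had log2 changes of 0.02 and stayed at or below 2.44 on all arrays. Neither was counted among the 54.

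The untreated arrays also differed among themselves. Day 0 replicate 2 was the lowest untreated array in 39 of the 54 probe sets (72.2%), against 31.7% of all probe sets. It lay more than 1 log2 unit below the mean of day 0 replicates 1 and 3 in 11 of the 54 (20.4%), which read 9 genes or groups of near-identical genes: Ttr with 3 probe sets, Reg3g, Spink1, the Gsta1 probe set, Tff3, 2210407C18Rik, the Dcpp probe set, Wfdc18 and Csn2. Over the array, 64 probe sets (0.283%) had such a gap. Just inside it was the Csn2 probe set 1420370_s_at at -1.10, and just outside its other probe set 1420369_a_at at -0.998. The median SD over the day 0 arrays was 0.30 for the 54 probe sets and 0.11 for the array.

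Other genes moved with this array. Of the 64 probe sets, 6 were on the list of other tissue-restricted genes (of 73), among them 3 for the islet hormone gene Iapp. The lists of medullary epithelial and thymocyte genes had 2 each (of 49 and of 19), and the other lists, macrophage and dendritic markers among them, had 0. That 0 covers the listed markers only. C1qa, a complement gene of macrophages on none of the lists, was among the 64 at -1.10. So were Lyz1 (-1.32 and -1.16), Lyz2 (-1.06), Ccl6 (-1.46), Ccl9 (-1.31), Acp5 (-1.08) and F13a1 (-1.08), also on none of the lists. Like C1qa, these had both day 4 arrays above all day 0 arrays. Thymocyte markers averaged 4.67 on day 0 replicate 2, against 5.32 and 5.15 on the other untreated arrays, and macrophage and dendritic markers averaged 4.73 on it, the lowest of the untreated arrays. Of 24 pan-epithelial probe sets 0 had such a gap, while day 0 replicate 2 was the lowest untreated array in 15 of them (62.5%) and in 30 of the 49 medullary ones (61.2%). The part of other cells in the spread was not tested.

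**Figure D3:**
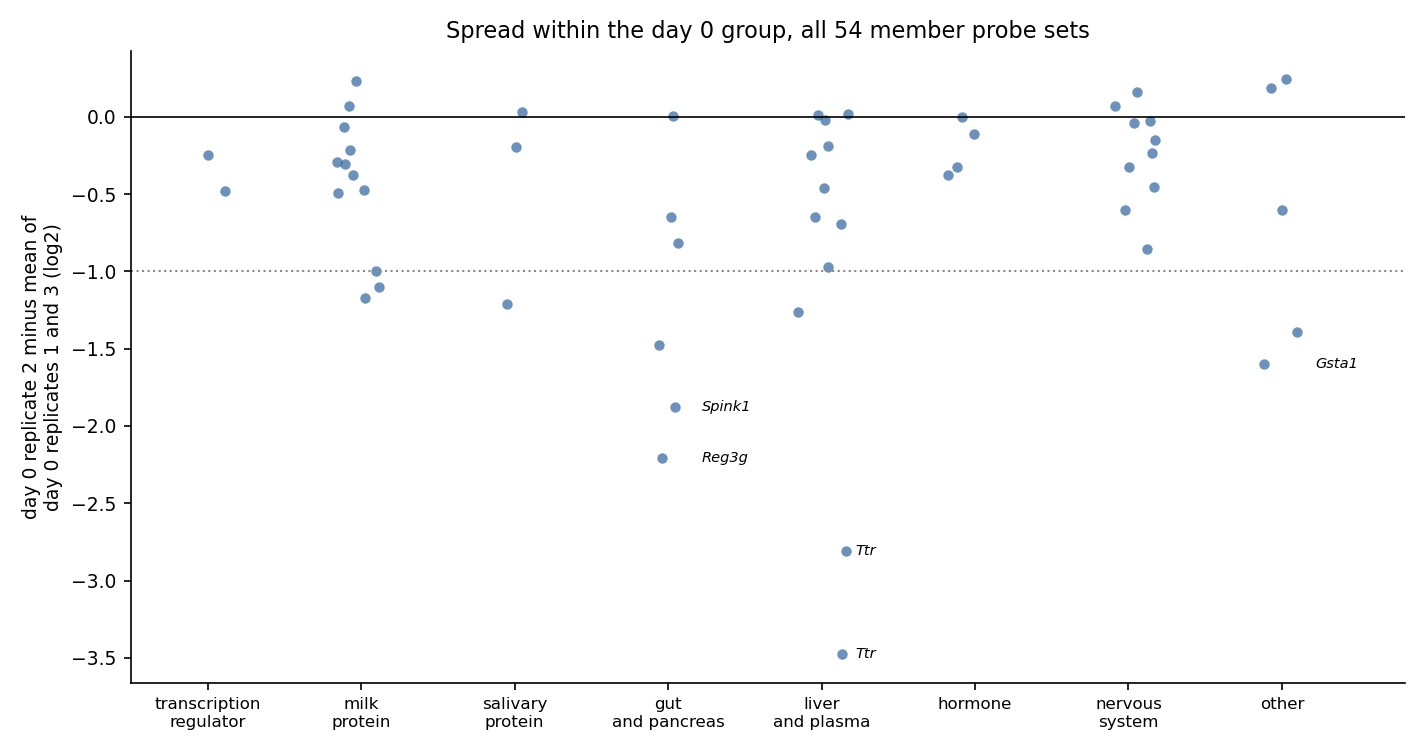
Level on day 0 replicate 2 minus the mean of day 0 replicates 1 and 3, in log2 units, for each of the 54 probe sets, grouped by role, with a dotted line at -1. The 11 points below the line belong to milk, salivary, gut, liver and other genes, with 2 Ttr probe sets lowest at -3.48 and -2.81, and 0 to regulators, hormones or the nervous system.

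Markers of epithelial cells in general were set beside these genes. Pan-epithelial markers averaged 5.32 and 4.75 on the day 4 arrays, against 5.81, 5.32 and 5.37 on the day 0 arrays, over 24 probe sets of 14 genes. Their median log2 change, -0.43, was close to the -0.45 of the 54 probe sets, and that of 15 cortical epithelial probe sets was -0.50. Limma called 0 of the pan-epithelial probe sets. At an unadjusted p under 0.05 it gave 7 lower and 0 higher, against 7.5% and 8.18% of the array. Both day 4 arrays lay below all day 0 arrays in 7 of the 24 (29.2%), against 17.6% of the array. Named after their values were seen, probe sets for Trp63 (log2 change -1.41), Krt14 (-1.26), Cldn7 (-1.24) and Krt17 (-1.07) had this order. Those changes were of the size of the changes of Aire and Fezf2. Other probe sets of these genes changed less, by -0.05 and -0.11 for Trp63, -0.04 and -0.71 for Krt14 and -0.21 for Krt17. All but the Krt14 one at -0.71 were under log2 4 on every array. Krt18 (-0.16) and Krt5 (0.33) overlapped between the groups. Of the 24 changes, 21 were below 0 and 3 above. Epcam had a log2 change of -0.48 (limma adjusted p 0.631) that turned to 0.27 without day 4 replicate 2. Foxn1, the master regulator of thymic epithelium, had a log2 change of -0.03 and values of 2.997 to 3.58 on all arrays.

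The 2 day 4 arrays were then set against the day 0 mean one by one. Relative to the day 0 mean, the median cortical epithelial probe set was at 0.07 on day 4 replicate 1 and at -1.05 on day 4 replicate 2. The median pan-epithelial probe set was at -0.16 and -0.65. For the 54 probe sets the medians were -0.47 and -0.38. Each of the 5 called probe sets lay at least 2.52 below its day 0 mean on both arrays. The 5 were called from these same arrays, so low values on both were largely set by that selection. The difference between these lists was not tested.

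Other genes of medullary epithelium, a list of 27 from which the genes above were left out, had 24 measured genes and 49 probe sets. Their mean level at day 4 was 4.15 and 4.13, against 4.09 to 4.34 at day 0, and the median log2 change was 0.003. Limma called 1 lower, Spib, a transcription factor of medullary epithelium that B cells and plasmacytoid dendritic cells also use, at 3.53 and 3.29 on the day 4 arrays, against 4.66, 4.63 and 4.37 on the day 0 arrays (log2 change -1.15, adjusted p 0.0239). The B cell genes Ms4a1 (log2 change -1.45) and Cd79b (-1.14) were called lower too. Their part in the Spib value was not tested.

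Among 15 measured partners of AIRE, 1 of 31 probe sets was called, for the DNA topoisomerase Top2a, which dividing cells express. It read 4.85 and 4.65 on the day 4 arrays, against 6.998, 6.31 and 6.44 on the day 0 arrays, and its other probe set had a log2 change of 0.30. The median log2 change of the 31 was 0.12.

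Of a further list of 62 tissue-restricted genes, 53 were measured with 73 probe sets. Prol1, the gene found above for Muc10, is on this list, and its probe sets are among the 73. Limma called 2 lower and 0 higher. At an unadjusted p under 0.05 it gave 15 lower and 1 higher, against 7.5% and 8.18% of the array. Fabp9, a fatty acid carrier of the testis, read 3.20 and 3.33 on the day 4 arrays, against 5.53, 4.83 and 5.56 on the day 0 arrays, with a log2 change of -2.03 (adjusted p 0.0191). Krt10, a keratin of the outer epidermis, had a log2 change of -1.17. Both day 4 arrays lay below all day 0 arrays in 19 of the 73 (26.0%), against 17.6% of the array. The median log2 change was -0.12, against -0.45 for the 54 probe sets, -0.43 for the pan-epithelial and -0.50 for the cortical epithelial probe sets.

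**Figure D4:**
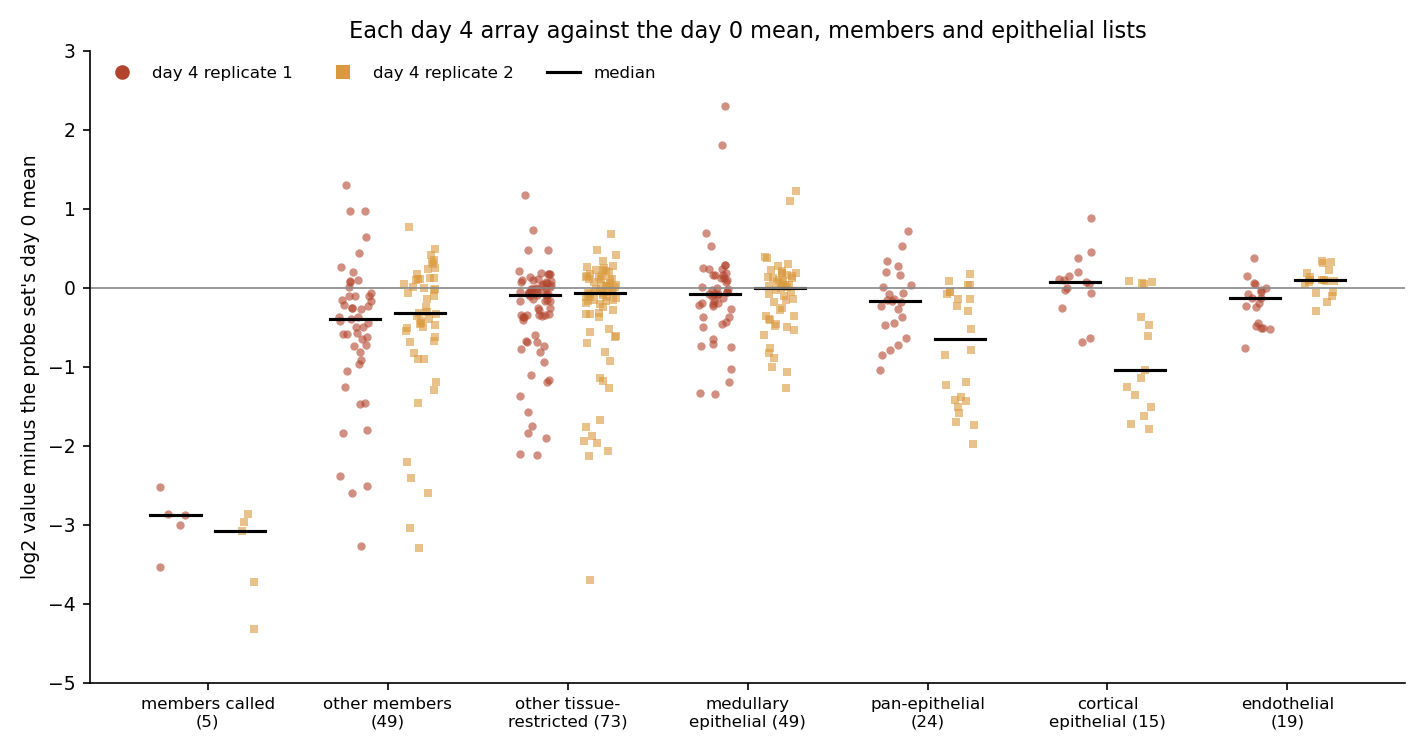
Each day 4 array minus the day 0 mean, in log2 units, for 7 sets of probe sets, with circles for day 4 replicate 1, squares for day 4 replicate 2 and a black line at each median. The called probe sets, which were selected on these same arrays, lie between -4.32 and -2.52 on both. The medians of the cortical list, which was not selected in this way, lie at 0.07 on replicate 1 and -1.05 on replicate 2.

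Blood cell markers also moved with the groups. Thymocyte markers averaged 3.63 and 3.57 on the day 4 arrays, against 5.32, 4.67 and 5.15 on the day 0 arrays. Of their 19 probe sets, 7 were called lower, against 0.455% of the array, with Rag1 at a log2 change of -4.01 and Satb1 at -3.04. Another Satb1 probe set, 1436182_at, overlapped between the groups (log2 change -0.88, limma adjusted p 0.298). Macrophage and dendritic markers averaged 6.11 and 6.07 at day 4, against 4.73 to 5.42 at day 0. Of 12 probe sets, 3 were called higher, against 0.491% of the array, with Cd163 at a log2 change of 2.89 and Vsig4 at 2.69. The pan-leukocyte gene Ptprc, which encodes CD45, had a log2 change of 0.005. The RNA quality controls, signal at the 3′ end minus the 5′ end, were 1.35 and 1.39 for actin at day 4, against 1.59, 1.65 and 1.43 at day 0. Over all 10 marker lists, 15 probe sets were called lower and 3 higher, and without day 4 replicate 1 the counts were 1 and 0. The part of any of these in the levels above was not tested.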

How the data were processed

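RNA of sorted thymic cells was hybridised to single-colour Affymetrix MOE 430 A 2.0 arrays. The authors deposited 1 log2 value per probe set and array, made with GCRMA per the submitters' processing notes. GCRMA corrects background from probe sequence, brings the arrays to a common distribution and summarises each probe set, which spreads out low values and hides changes shared by most genes. Neither its version nor a joint run of all 5 arrays is stated in the sources used here.

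Probe sets were named from the platform annotation. After 64 control probe sets were set aside, 22626 entered lmFit and eBayes of limma 3.58.1 (R 4.3.3) with no level filter and no covariate, two-sided, with Benjamini-Hochberg adjustment over all of them and calls at an adjusted p under 0.05. The fit had 3 residual and 3.67 prior degrees of freedom, and was checked on simulated data. Errors are SE for log2 changes. Promoters came from RefSeq, and figures from matplotlib 3.10.9 in Python 3.11.15. Genes given with every array were Aire, Fezf2, those with a called probe set and those above log2 4 on all arrays of 1 group and on none of the other. For each marker list up to 2 called genes per direction were named, and Epcam, Foxn1, Cdh5 and Ptprc whatever their values. Other genes shown in full were picked after their values were seen. The genes, lists and rules were chosen with earlier results of these data known. Alternatives were level filters, 1 probe set per gene, quantile normalization, median centring, an intensity trend with robust fitting, array weights, a replicate block, other levels for the shares and leaving out each array. The labels give no batch or date.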

Additional observations from a re-analysis of the deposited data

How the results depend on the processing

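The member calls (5 lower, 0 higher) gave 2 lower with an intensity trend and robust fitting and 0 with array weights, and ran from 0 to 12 lower when single arrays were left out, with 0 without day 4 replicate 1, day 4 replicate 2 or day 0 replicate 3 and 12 without day 0 replicate 2. The array-wide counts, 103 lower and 111 higher, ran from 6 to 124 and 2 to 92 when single arrays were left out, lowest without day 4 replicate 1, and were 38 and 47 with array weights and 150 and 172 with the trend. The calls over the 10 marker lists, 15 lower and 3 higher, ran from 1 to 25 and 0 to 6 without single arrays, were 9 and 1 with array weights, and 8 lower with a level filter at log2 6. With 1 probe set per gene 5 genes were called, 3 of them shared with the main calls, and Fezf2 and Tff2 were the others.

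With the replicate number as a block, 9 of the 54 probe sets were called lower and 1 higher. The counts were 217 and 247 over the array, and 32 and 7 on the marker lists. The added probe sets read Fezf2, Reg3g, the Gsta1 group and Mbp in both directions. Day 0 replicate 3 has no day 4 partner and was taken up by its own block. The log2 changes were thus those without that array, -1.28 for Aire in both, and these calls rest on replicates 1 and 2 of each group. Same-numbered arrays had deviations that correlated at 0.157 and 0.0687 over probe sets. The deviations of the 2 day 4 arrays mirror each other, so differently numbered arrays gave -0.0687 and -0.157 and the check says little. The labels name no shared animal or batch. Whether same-numbered arrays share more than a number cannot be told.

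The median log2 change of -0.45 was -1.04 and -3.28 over the probe sets above log2 4 and 6 on at least 2 arrays, -0.84 with 1 probe set per gene, and -0.56 to -0.30 without single arrays; the filters leave 29, 7 and 18 probe sets. The share of genes above the level, 34.3% at day 4 and 60.0% at day 0, was 68.6% and 85.7% at log2 3, 14.3% and 42.9% at log2 5, 2.86% and 20.0% at log2 6, and 31.5% and 51.9% over every probe set. Without single arrays it ran from 28.6% to 31.4% at day 4 and from 54.3% to 62.9% at day 0.

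Changes near 0 reversed for markers. Epcam ran from -1.23 to 0.27 without single arrays, with 0.27 without day 4 replicate 2. Foxn1 was 0.0043 with array weights and ran from -0.23 to 0.17, positive without day 4 replicate 1 or day 0 replicate 1 (0.15). A Cdh5 probe set was 0.11 with the replicate block and ran from -0.13 to 0.11, positive without day 4 replicate 1 (0.077) or day 0 replicate 3. Ptprc was -0.015 after quantile normalization and -0.020 after centring and ran from -0.22 to 0.17, negative without day 4 replicate 1 (-0.15) or day 0 replicate 2. The causes were not tested.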

Other observations

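The 64 probe sets that read more than 1 log2 unit lower on day 0 replicate 2 than on the mean of the other untreated arrays were of several kinds, and were looked up after the values were seen. The acute-phase gene Saa1 was among them with probe set 1419075_s_at, at 2.83 and 3.12 on the day 4 arrays, against 6.61, 4.26 and 6.49 on the day 0 arrays. Saa3 read 6.55 and 5.96 at day 4, against 8.79, 6.71 and 9.15 at day 0. The islet hormone gene Iapp read 2.38 and 2.45 at day 4 with probe set 1423510_at, against 4.97, 2.49 and 4.92 at day 0, so that day 0 replicate 2 lay next to the day 4 arrays. C1qa, a complement gene of macrophages, had the other order between the groups, at 9.79 and 9.66 at day 4, against 8.40, 6.90 and 7.60 at day 0.

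Of the 64, 38 had both day 4 arrays below all day 0 arrays, against 17.6% of the array. Limma called 4 of the 64 lower and 1 higher, against 0.455% and 0.491% of the array. Those 4 are calls already given above, for 2210407C18Rik, the shared Dcpp probe set, Wfdc18 and Csn2 (1420370_s_at), and are no further ones. The 1 called higher was F13a1, which was not among the genes followed here. The genes followed here made up 17.2% of the 64, and 20.4% of their own 54 probe sets were in it.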
